A study of Ovis aries with 4 samples.

Results

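The genes described here are 6 genes of macroautophagy, MAP1LC3B, RB1CC1, LAMP2, ATG14, OPTN and NBR1, chosen by name, and every deposited N6-methyladenosine (m6A) peak that carries one of these gene names. All 6 were among the 5261 genes with a peak at either age. Together they held 7 of the 3656 peaks of the aged list and 7 of the 4378 peaks of the young list. The peaks came from ovarian tissue of Cele black sheep, a domestic breed, at an age of 5 to 6 years (aged) and of 1 to 2 years (young). No genotype or treatment is named for any sample. At each age, RNA precipitated with an antibody against m6A and an input without antibody were sequenced, 4 samples in all, and 1 peak list per age was analysed. The labels number the young samples replicate 1 and the aged samples replicate 2, so replicate number and age cannot be told apart. Whether a sample pooled several animals is not given in the sources used here.

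In macroautophagy a double membrane closes around cargo and fuses with the lysosome. RB1CC1 (also called FIP200) is a scaffold of the ULK1 kinase complex that starts the process, and ATG14 directs the lipid kinase complex that marks the site where the membrane forms. MAP1LC3B belongs to the ATG8 family of small proteins that are linked to the lipid of that membrane. OPTN and NBR1 bind ubiquitin-tagged cargo on one side and ATG8 proteins on the other, and LAMP2 is an abundant protein of the lysosomal membrane. In the mouse ovary, autophagy is known for its part in the survival of primordial follicles, and in granulosa cells it has been studied in follicular atresia.

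In messenger RNA, m6A is set by a methyltransferase complex, removed by demethylases and recognised by reader proteins that influence how a transcript is spliced, translated and degraded. Each peak marks part of a transcript that was enriched in the precipitate. The fold (a linear ratio), p-value and adjusted p-value of a peak were computed by the authors. No peak of either list had a fold below 1.5, and the highest p-values were 0.0490 in the aged list and 0.0468 in the young list. A gene without a peak is therefore a gene without a listed peak, not one shown to lack m6A. With 1 list per age no difference between the ages could be tested, sequencing depth was not given, and no input library was analysed, so less methylation, less transcript and fewer cells that express a gene cannot be told apart. Markers of ovarian cells were covered at both ages, with FSHR and INHBB of granulosa cells, CYP17A1 and FDX1 of theca and luteal cells and NPM2 of oocytes in both lists. More markers had an aged than a young peak for oocytes (4 of 8 in the aged and 2 of 8 in the young list), endothelium (4 and 3 of 6) and T cells (1 and 0 of 2). Fewer had an aged than a young peak for granulosa cells (2 and 3 of 7), theca and luteal cells (3 and 4 of 7), stroma (2 and 5 of 6), macrophages (2 and 5 of 5) and smooth muscle (0 and 2 of 3), and 0 of 3 erythroid markers had a peak. Over all 5261 genes with a peak, 3086 had an aged and 3846 a young peak, so fewer aged than young markers is also the direction of the lists as a whole. The part of these cell types in the results below was not tested.

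Of the 6 genes, 1 (ATG14) had a peak in the aged list only, 2 (OPTN and NBR1) had peaks in both lists, and 3 (MAP1LC3B, RB1CC1 and LAMP2) had peaks in the young list alone. Over all 5261 genes with a peak, 26.9% were in the aged list only, 31.8% in both and 41.3% in the young list only. The genes were named with these positions known, so the split describes them and supports nothing beyond that. Both age groups held 7 peaks of these genes, but the aged peaks lay in 3 genes and the young peaks in 5.

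**Figure D1:**
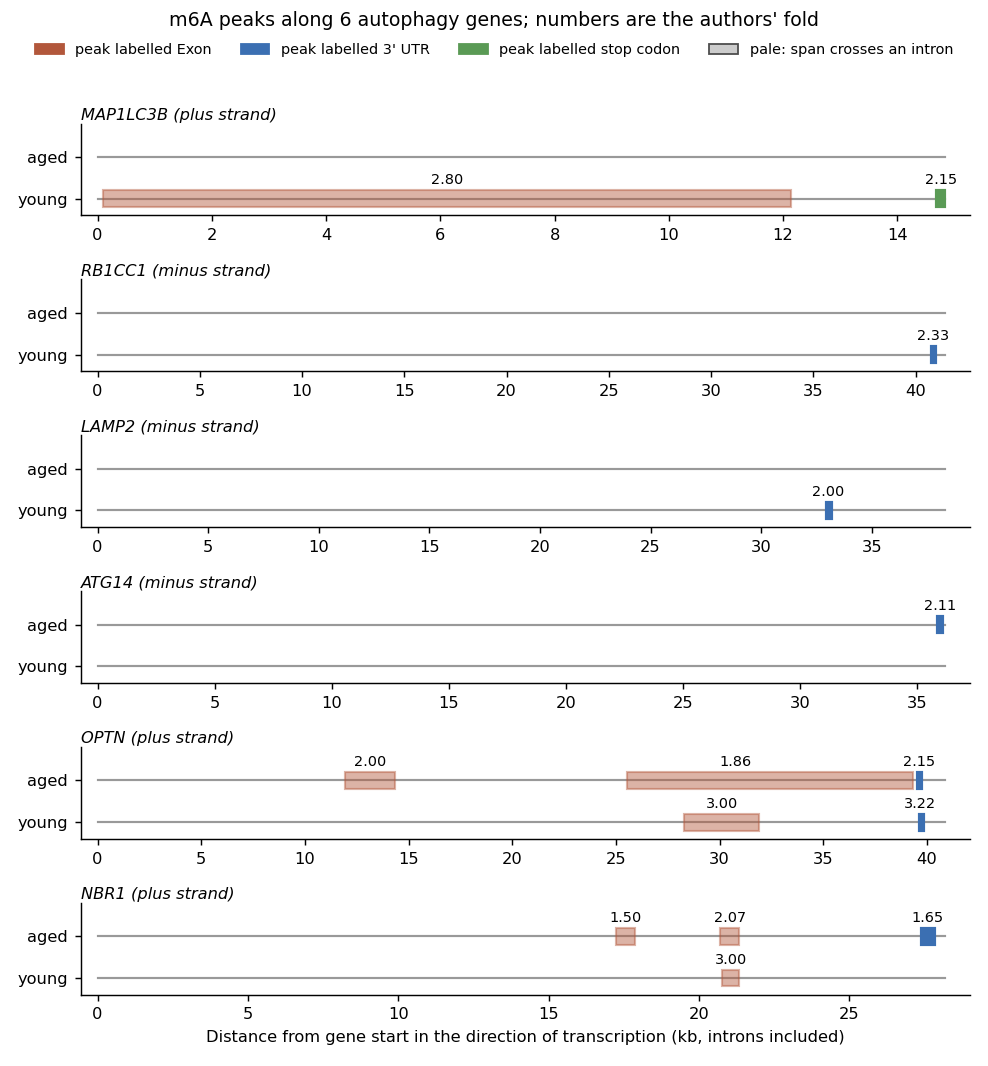
Position of every peak along the 6 genes, as distance in kb from the gene start in the direction of transcription, with the aged list above the young list in each panel. Boxes span a peak from start to end, colours give the deposited label, pale boxes cross an intron, numbers are the authors' fold, and the shortest boxes are widened slightly to stay visible. OPTN and NBR1 carry 3 aged peaks each, and MAP1LC3B, RB1CC1 and LAMP2 carry none.

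RB1CC1, the initiation scaffold, had no aged peak and 1 young peak. This young peak, labelled 3' UTR, lay on the minus strand of chromosome 9 (34478204 to 34478403), was 200 bases wide and had a fold of 2.33 with an adjusted p of 1.26e-17. Its fold exceeded that of 65.5% of the young peaks. It lay 497 bases short of the gene end in the gene table.

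ATG14, the subunit that targets the lipid kinase complex, was the reverse case. Its aged peak, labelled 3' UTR, covered 248 bases on the minus strand of chromosome 7 (65904481 to 65904728), with a fold of 2.11 and an adjusted p of 3.98e-11. That fold exceeded 67.4% of the aged peaks, and its log10 p of -11.7 was the lowest of the 7 aged peaks of these genes. The peak stopped 99 bases before the gene end, and the young list held no peak in the gene.

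MAP1LC3B, the ATG8 family member most used as an autophagosome marker, had no aged peak and 2 young peaks. The first, labelled exon, had a fold of 2.80 and spanned 12514961 to 12527000 on the plus strand of chromosome 14. Its deposited width was 150 bases, so most of that 12040-base span was not part of the peak. It began 99 bases from the gene start in the gene table and thus crossed from sequence close to the 5' end into a downstream exon. The other, labelled stop codon, had a fold of 2.15 and lay at 12529546 to 12529695, its right edge coinciding with the gene end in the gene table. The exon peak had the higher fold of this pair and the weaker p-value (log10 p -6.98, against -11.3 for the peak at the gene end). The other peaks of the 6 genes, at either age, began at 29.1% of the gene's length or farther downstream, and none of them was labelled stop codon.

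LAMP2, the lysosomal membrane protein gene, had no aged peak and 1 young peak, the weakest young peak of the 6 genes by fold. It was labelled 3' UTR on the minus strand of chromosome X (104765079 to 104765228), with a fold of 2.00 and an adjusted p of 1.26e-12. Its fold exceeded 41.7% of the young peaks. Human LAMP2 is known for splice forms with alternative last exons. The sheep peak lay 5209 bases short of the gene end, farther from it than any other peak labelled 3' UTR in these genes.

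OPTN, a ubiquitin-binding receptor for damaged mitochondria and bacteria, had 3 aged peaks and 2 young peaks on the plus strand of chromosome 13. From 5' to 3', the aged peaks were an exon peak at 27187015 to 27189450 with a fold of 2.00, an exon peak at 27200652 to 27214402 with a fold of 1.86, and a 3' UTR peak at 27214601 to 27214800 with a fold of 2.15. The young peaks were an exon peak at 27203401 to 27206993 with a fold of 3.00 and a 3' UTR peak at 27214700 to 27214849 with a fold of 3.22. The folds ran from 1.86 to 2.15 in the aged list and from 3.00 to 3.22 in the young list. Within each list the peaks shared 1 log10 p, so these p-values are not counted as separate measurements. Whether the folds of a gene's peaks are separate measurements is not known. The 3' UTR peaks shared 101 bases, the aged one beginning 99 bases upstream of the young one. The second aged exon peak held 746 bases of exon, the widest peak of the 6 genes, and its span enclosed the young exon peak. Exon positions were not used here, so whether those exon peaks share bases of RNA is unknown. The first aged peak, 11201 bases upstream of the next, had no young counterpart.

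NBR1, a cargo receptor that also acts in the removal of protein aggregates and peroxisomes, had 3 aged peaks and 1 young peak on the plus strand of chromosome 11. The aged peaks were an exon peak at 42917413 to 42918053 with a fold of 1.5, an exon peak at 42920891 to 42921534 with a fold of 2.07, and a 3' UTR peak at 42927576 to 42928023 with a fold of 1.65. The young peak was an exon peak at 42920941 to 42921534 with a fold of 3.00. The middle aged peak and the young peak ended at the same base, and the aged one began 50 bases farther upstream. The other aged peaks had no young counterpart and had low folds within their list. Their log10 p of -9.52 was below the aged list's median of -6.22. All 3 aged peaks shared that value, so it is not a separate measurement for each. The exon peak at 42917413 stood at the lowest fold of the aged list, and the 3' UTR peak exceeded 22.7% of the aged peaks. With only peaks that lie within 1 exon, the young peak dropped out and NBR1 counted as a gene of the aged list only.

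**Figure D2:**
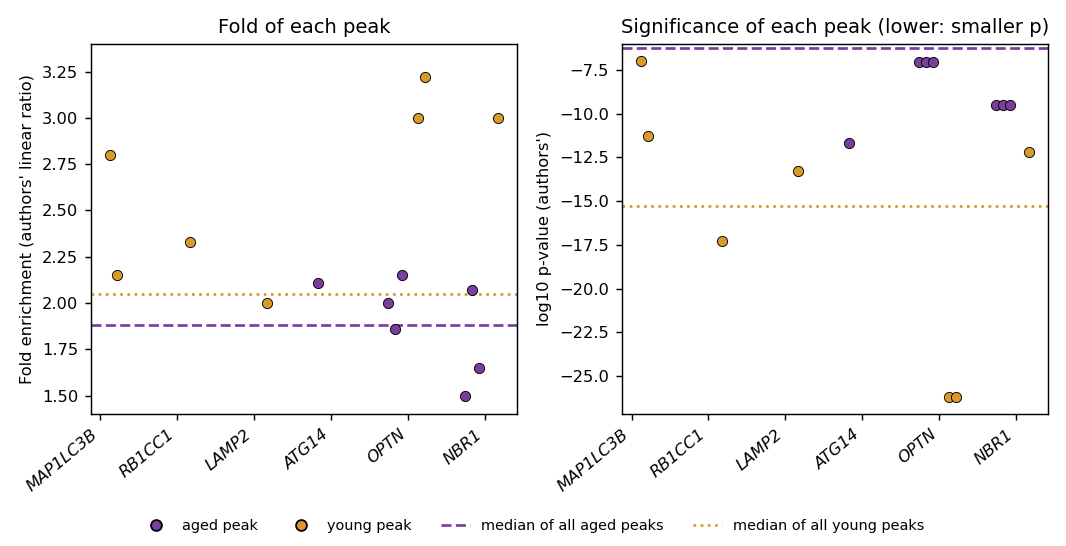
The authors' fold (left) and log10 p-value (right) of each peak of the 6 genes, aged peaks left of young peaks, with lines at the median of all peaks of each list. Young folds run from 2.00 to 3.22 and aged folds from 1.5 to 2.15. The peaks of OPTN share 1 log10 p within each list, and so do the 3 aged peaks of NBR1.

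By strength, the 7 aged peaks had a median fold of 2.00 and the 7 young peaks one of 2.80, beside medians of 1.88 over all aged and 2.05 over all young peaks. A fold of at least 2 was reached by 4 of the 7 aged peaks (42.7% of all aged peaks) and by 7 of the 7 young peaks (58.3% of all young peaks). The 6 genes were chosen with their peaks known. In the wider autophagy list described below, without these 6, median folds were 1.85 in 20 aged and 1.80 in 24 young peaks. A fold of at least 2 was reached by 8 of those 20 and 8 of those 24 peaks. The log10 p of the 6 genes ran from -11.7 to -7.07 in the aged peaks, all lower than the aged list's median of -6.22. It ran from -26.2 to -6.98 in the young peaks, on both sides of the young list's median of -15.3. Several peaks of a gene often shared 1 log10 p. The 3 aged peaks of OPTN all stood at -7.07, the 3 aged peaks of NBR1 at -9.52 and the 2 young peaks of OPTN at -26.2. Over all genes with several peaks, 31.6% of the aged and 15.9% of the young genes had the same log10 p for each. Such p-values are therefore not counted here as separate measurements.

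In number, 2 of the 3 genes with an aged peak had at least 3 peaks, against 2.75% of the genes of the aged list. None of the 5 genes with a young peak had 3, against 1.48% of the young list. At least 2 peaks were held by 2 of the 3 genes in the aged list, against 15.1% of its genes, and by 2 of the 5 genes in the young list, against 12.1% of its genes. In the wider autophagy list without these 6 genes, 0 of 17 genes with an aged peak had at least 3 peaks. At least 2 were held by 3 of those 17 genes, and by 2 of 22 genes with a young peak. The aged peaks of OPTN and NBR1 covered 1145 and 799 bases of RNA, and the young ones 300 and 150 bases. In both genes the aged peaks were thus more numerous and wider and had lower folds than the young ones. The higher number rested on aged peaks with a fold below 2. With a fold of at least 2, OPTN kept aged peaks of 2.00 and 2.15 beside young peaks of 3.00 and 3.22. NBR1 kept an aged peak of 2.07 beside a young peak of 3.00, so neither gene then had more aged than young peaks.

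By position, 4 of the 7 aged peaks were labelled exon, against 15.3% of all aged peaks, and 3 were labelled 3' UTR, against 66.4%. Of the 7 young peaks, 3 were labelled exon, against 9.30% of all young peaks, 3 were labelled 3' UTR (47.3%) and 1 stop codon (41.3%). In the wider autophagy list without these 6 genes, 2 of 20 aged and 4 of 24 young peaks were labelled exon. There, 17 of the 20 aged and 9 of the 24 young peaks were labelled 3' UTR. All 7 exon peaks of the 6 genes crossed an intron, and their other peaks did not. Among all exon-labelled peaks, 60.8% of the aged and 69.5% of the young ones crossed an intron, as did 22.5% of aged and 16.9% of young peaks of any label. The exon peaks came from MAP1LC3B, OPTN and NBR1, the plus-strand genes of the 6, while RB1CC1, LAMP2 and ATG14, on the minus strand, had 3' UTR peaks alone. With 3 genes on each strand, strand and gene cannot be told apart. No other gene of the gene table overlapped any of the 14 peaks.

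Of the peaks in OPTN and NBR1, 3 of 6 aged peaks overlapped a young peak and 3 of 3 young peaks overlapped an aged one, by at least 1 base of span on the same strand. Over all genes with peaks in both lists, 72.2% of aged and 74.2% of young peaks did so. With only peaks within 1 exon, the pair of 3' UTR peaks in OPTN was the sole overlap left of the 3.

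Genes with the most similar peaks were sought by equal strand and labels and then by the highest fold in each list. OPTN and NBR1 had a single candidate each over both lists, RBM25 for OPTN (summed log2 distance 0.67) and CCAR1 for NBR1 (0.66). RBM25 had highest folds of 3.36 in the aged and 3.17 in the young list, and CCAR1 of 2.25 and 2.06, so neither showed the higher young than aged fold of its counterpart. The other genes were compared in 1 list each. MAP1LC3B had 10 candidates, with ARMC9 nearest (highest young fold 2.92, log2 distance 0.06, tied with 1 further gene). RB1CC1, LAMP2 and ATG14 matched 8, 40 and 2 genes exactly in fold, among them JARID2, APOO and ZNF132. No other exact match was nearer in peak width, though some may be equally near. Candidates with the same strand and label, before fold was compared, numbered 377 for RB1CC1, 377 for LAMP2 and 473 for ATG14. A single 3' UTR peak in 1 list alone is thus common, whatever its fold.

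The 6 genes were then set within a wider list of 95 autophagy genes in 10 roles. Of the 95, 36 had a peak: 9 (25.0%, 95% Wilson interval 13.8 to 41.1) in the aged list only, 11 (30.6%, 18.0 to 46.9) in both and 16 (44.4%, 29.5 to 60.4) in the young list only. These shares lay close to those of all genes with a peak, 26.9%, 31.8% and 41.3%, and each interval, which covers counting error only, included the share over all genes. Keeping only peaks with a fold of at least 2.00 left 7 aged-only, 3 shared and 9 young-only genes, where all genes with such a peak were 26.1% aged-only, 19.1% shared and 54.7% young-only. The 3 were OPTN, NBR1 and WDFY3.

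**Figure D3:**
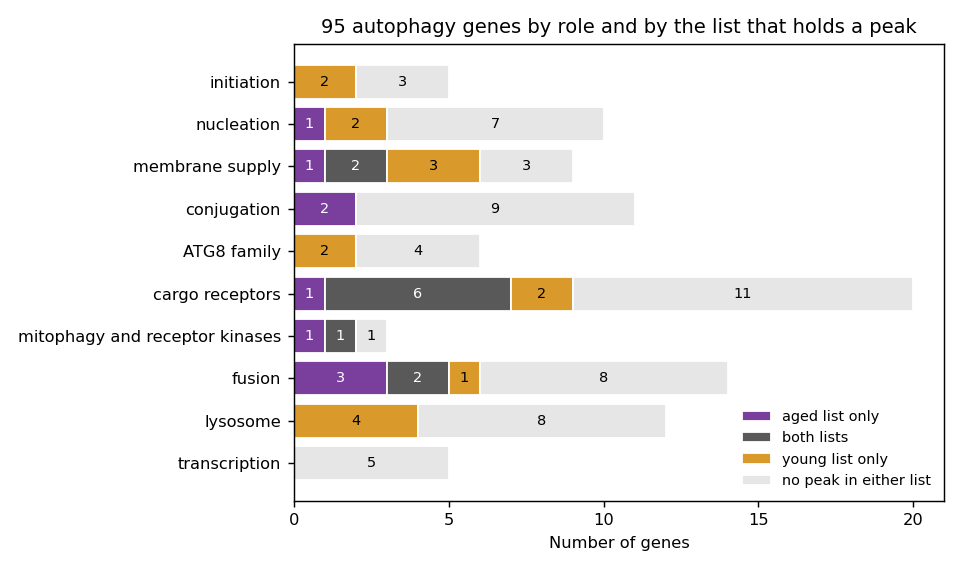
Number of genes of each autophagy role with a peak in the aged list only, in both lists, in the young list only or in neither, from the wider list of 95 genes. Cargo receptors hold 6 of the 11 genes with a peak in both lists, and the 4 lysosomal genes with a peak are all in the young list only. OPTN and NBR1 among the former and LAMP2 among the latter were chosen with their places known.

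Initiation had 2 genes with a peak and nucleation 3, too few to set against the shares over all genes, and the places of RB1CC1 and ATG14 were known when the genes were chosen. Beside RB1CC1, the ULK1 complex subunit gene ATG13 had a young peak only (fold 1.84, stop codon label). ULK1, ULK2 and ATG101 had no listed peak. Of the nucleation genes, ATG14 was alone in the aged list. RUBCN, whose product Rubicon inhibits autophagosome maturation, had 2 young peaks with folds of 3.78 and 3.75, the highest young folds of the wider list, and VMP1, a membrane protein of the endoplasmic reticulum, had 1 young peak (1.86). BECN1 and PIK3C3, the core of the lipid kinase complex, had no listed peak.

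Membrane supply was covered at both ages. ZFYVE1 had an aged peak only (2.18). The lipid transfer gene ATG2A had highest folds of 1.73 in the aged and 1.75 in the young list, and ATG9B, which encodes a membrane protein of the vesicles that seed the autophagosome, of 1.93 and 2.60. The phosphoinositide-binding genes WIPI1 (1.89), WIPI2 (1.74) and WDR45 (2.27) had young peaks only.

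The conjugation genes with a peak were both in the aged list only. They were ATG5 (1.71), part of the ligase for ATG8 proteins, and the protease gene ATG4C (1.5, adjusted p 0.0219). The ATG8 genes with a peak, MAP1LC3B and GABARAPL1 (1.75), were both in the young list only. With 2 genes of each kind, these counts are too small to set against the 26.9% and 41.3% of all genes.

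Of 9 cargo receptor and adaptor genes with a peak, 6 had peaks in both lists, 1 in the aged list only and 2 in the young list only, beside 31.8%, 26.9% and 41.3% of all genes. OPTN and NBR1 were chosen with their place in both lists known, so the shared count is not independent of that choice. Besides OPTN and NBR1, the shared genes were TAX1BP1, the reticulophagy receptor genes RETREG1 and CCPG1, and WDFY3, a large adaptor for protein aggregates. Highest folds were 3.53 in the aged and 2.40 in the young list for WDFY3, 2.22 and 1.75 for TAX1BP1, 2.22 and 1.74 for CCPG1, and 1.75 and 2.60 for RETREG1. The aged and young peaks of TAX1BP1 and of RETREG1 did not overlap. In CCPG1 the young peak overlapped the aged 3' UTR peak, which had a fold of 2.05, and not the aged exon peak of 2.22. The mitophagy receptor gene BNIP3L had an aged peak only (1.87), and PHB2 (1.90) and SEC62 (2.83) young peaks only. SQSTM1 and CALCOCO2, which encode 2 further ubiquitin-binding receptors, had no listed peak.

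The mitophagy kinase gene PINK1 had highest folds of 2.05 in the aged and 1.60 in the young list. SNAP29 (2.09), a SNARE of autophagosome fusion, PLEKHM1 (1.83, adjusted p 0.0813, and 1.67) and VPS39 (2.00), a tethering subunit, were in the aged list only, and TECPR1 (2.60) in the young list only. VPS18 had folds of 1.52 in the aged and 1.76 in the young list, and VPS33A of 1.80 and 1.70. The 6 fusion genes with a peak thus divided into 3 aged-only, 2 shared and 1 young-only gene, beside 26.9%, 31.8% and 41.3% of all genes. The Wilson interval of the aged-only share, 18.8 to 81.2%, included that of all genes. Of the transcription factors of the list, TFEB, TFE3, MITF and FOXO3 had no listed peak, and ZKSCAN3 was not matched in the gene table.

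The 4 lysosomal genes with a peak were all in the young list only, among them LAMP2, ATP6V1H (1.68) of the proton pump and HSPA8 (1.61), a chaperone of chaperone-mediated autophagy. LAMP2 had the highest fold of the 4. Over all genes with a peak, 41.3% were in the young list only, and 4 genes are too few to set against that share. HSPA8 has near-identical processed copies in mammals, which can share its reads, so its peak is uncertain.

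**Figure D4:**
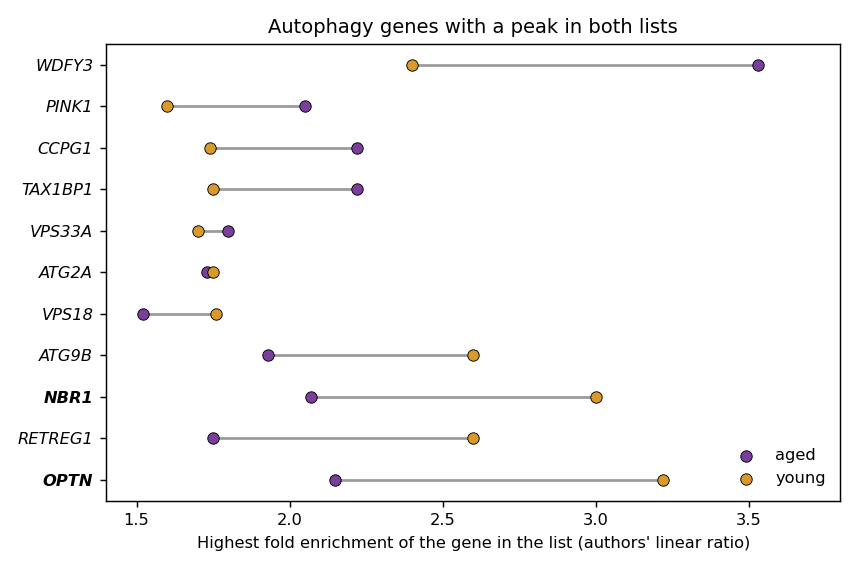
Highest fold of each autophagy gene with a peak in both lists, aged and young, ordered by the ratio of aged to young, with OPTN and NBR1 in bold. OPTN has the lowest ratio and WDFY3 the highest. The aged and young values of a gene can come from different peaks.

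Among the 11 genes with a peak in both lists, the aged fold was the higher one in 5 genes and the young fold in 6. Over all 1671 such genes, the aged fold was the higher one in 41.2%. OPTN (aged to young ratio 0.668), RETREG1 (0.673) and NBR1 (0.690) had the lowest ratios, followed by ATG9B (0.742), and WDFY3 (1.47) had the highest. Since depth is unknown, whether a fold means the same in both lists is unknown as well, and these ratios have no error.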

How the data were processed

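m6A immunoprecipitates and inputs of ovarian tissue at 2 ages were sequenced, and 1 peak list per age was analysed; groups follow the age and antibody labels. Per the labels' protocols, libraries came from Trizol-extracted total RNA with a stranded kit. ChIPseeker is listed, without a role, per the submitters' processing notes. Neither aligner, peak caller nor build is given in the sources used here. Per the file headers, the deposited columns hold, for each peak, the authors' fold (a ratio), p-value and adjusted p-value; the deposited log10 p-values were treated as a score.

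Start positions were converted to count from 1. A peak crossed an intron where its span exceeded its deposited width. Gene ends and chromosome numbers came from a gene table of assembly ARS-UI_Ramb_v3.0, matched by gene identifier for 99.5% of aged and 99.5% of young peaks. No build is named, but 331 aged and 1280 young peaks ended exactly at a gene end of the table, on each of the 6 chromosomes concerned in both lists, so distances to gene ends are given and its coordinates are not.

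The members, the wider list and the named genes (the 6 members, every gene of the wider list with a peak, and the nearest gene of each member) were chosen with earlier results of these data known. Some genes that this rule selects are counted but not reported here by name. Equal distances were resolved by peak width, a choice made after the values were seen, and then by gene name. Of the 95 wider genes, 94 were in the gene table. Alternatives were a stricter fold or adjusted p, equal list lengths, other labels, peaks within 1 exon and other overlap or matching rules. Overlap code was tested on simulated data. Figures were drawn with matplotlib 3.10.9, and values were computed with scipy 1.17.1, numpy 2.4.6 and pandas 2.3.3 under Python 3.11.15.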

Additional observations from a re-analysis of the deposited data

How the results depend on the processing

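Of 59 values recomputed under the alternatives, 49 stayed within 1.5 times the count given, or equal to the fold given, and 10 moved. Each of the 6 genes kept its place (aged list only, both or young list only) with a fold of at least 2.00, lists of equal length (3656 peaks), an adjusted p of at most 0.01, and exon and UTR labels only. The higher number of aged than young peaks in OPTN and NBR1 was lost with a fold of at least 2.00. With peaks within 1 exon, the members became 2 aged-only and 1 shared, through NBR1, and the overlapping pairs fell to 1. In the wider list, a fold of at least 2.00 gave 3 shared and 9 young-only genes, and exon and UTR labels gave 9 young-only genes; under those labels, stop codon peaks do not count. Taking the median over a gene's peaks in place of the highest fold gave 2.00 for OPTN and 1.65 for NBR1 in the aged list, and 3.11 for OPTN and 2.48 for MAP1LC3B in the young list. No paired analysis was possible because each age has 1 peak list. The unknown depth and the lack of peaks below a fold of 1.5 limit every statement on absence.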

Other observations

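The deposited pathway column gives another, broader list, which was counted after the values above were seen. Genes annotated there to autophagy or mitophagy numbered 64 among the genes with a peak, 22 of them in the wider list above. Of the 64, 23 (35.9%, 95% Wilson interval 25.3 to 48.2) had a peak in the aged list only, 21 (32.8%) in both and 20 (31.3%, 21.2 to 43.4) in the young list only. MAP1LC3B, RB1CC1, LAMP2 and ATG14 carried the autophagy annotation, and MAP1LC3B, OPTN and NBR1 the mitophagy annotation. The aged-only share of this annotation and that of the wider list (25.0%) lay on opposite sides of the 26.9% over all genes, and both intervals included it.

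By strand, the wider list had 3 aged-only, 6 shared and 8 young-only genes on the plus strand, and 6, 5 and 8 on the minus strand. Over all genes with a peak, 25.0% of plus-strand and 28.9% of minus-strand genes were in the aged list only.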
